A study of Homo sapiens with 27 samples.

Results

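The claudins and the other genes of the tight junction were examined in the human embryonic stem cell line H1 during its differentiation toward photoreceptor progenitors. The members were taken by symbol from a list of 33 genes. Of these, 32 had a row among the 44852 genes of the count table and are described here, and CLDN22 was not analysed here. They comprised 19 claudins, 3 MARVEL-domain proteins, 3 junctional adhesion molecules, 4 scaffold proteins, and 3 polarity proteins.

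Tight junctions seal neighbouring epithelial cells together at the apical end of their lateral membranes. Claudins form the strands of the seal and, depending on the member, either close it or open it to selected ions. Occludin and the related MARVEL proteins sit in the strands, junctional adhesion molecules lie beside them, zonula occludens proteins and cingulins tie them to the actin cytoskeleton, and the PAR and Crumbs polarity complexes place them. In the eye, the retinal pigment epithelium carries tight junctions, whereas the outer limiting membrane of the neural retina is built on adherens junctions.

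Cells were grown on 1 of 3 laminin matrices, named LN523, LN323, and LN521 after their leading isoform, and bulk RNA was sequenced at days 2, 22, and 32 with 3 libraries in each of the 9 groups, 27 in all. The study's methods mix LN523 and LN323 each with LN521 and use LN521 alone, whereas the sample labels give LN323 as the shared component, so the exact mixtures are unsettled. All groups shared the same medium course. Cells were plated in NutriStem, received CKI-7 and SB431542 for neural induction from day 2, and were later moved to a photoreceptor medium with BDNF, CNTF, retinoic acid, and DAPT. Library titles number the same days 0, 20, and 30. All libraries came from this single line, and nothing states that replicates were separate cultures, so p-values measure only the spread between these samples, which may be technical. A library's replicate number is also the number of its sequencing lane.

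Total counts ranged from 25620624 to 47340990 per library (median 39862487). Levels below are TMM-normalized CPM, the counts scaled to library size, and TPM, which are also scaled to transcript length, are used wherever the levels of different genes are compared. A gene was called changed at a Benjamini-Hochberg adjusted p-value under 0.05 in edgeR's quasi-likelihood test, adjusted over all genes tested. The labelled days were checked against marker lists. All 8 pluripotent cell markers fell and all 6 neural retina progenitor markers rose from day 2 to day 22, as did 7 of 8 pigment epithelium markers, 6 of 7 mesenchymal markers, 5 of 7 surface ectoderm markers, 4 of 5 choroid plexus markers, and 3 of 6 lens markers, of which 1 fell. Of 8 photoreceptor markers, 5 rose and 2 fell by day 22, and 6 rose from day 22 to day 32, although RCVRN, a defining gene of the class, still had a median of 0.224 CPM at day 32. In bulk RNA, fewer cells of a type and less RNA per cell cannot be told apart.

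The claudin repertoire changed in make-up and in amount. At day 2, CLDN6, a claudin of embryonic epithelia and pluripotent cells, was 81.7% to 86.6% of the summed claudin TPM in every library. Its level ranged from 1186 to 1483 TPM with a median of 1333 TPM. The next claudins by median TPM at day 2 were CLDN7 at 83.7, CLDN3 at 44.3, CLDN12 at 29.7, and CLDN10 at 25.2. At day 22, CLDN6 remained first at a median of 278 TPM and made up 28.2% to 45.2% of the sum. CLDN1, a sealing claudin that the epidermal barrier requires, came second at a median of 171 TPM, followed by CLDN4 at 124 TPM and CLDN3 at 108 TPM. The ranges of CLDN1 (71.4 to 278 TPM), CLDN4 (83.6 to 189 TPM), and CLDN3 (55.6 to 134 TPM) overlapped at day 22, so their order was not separated from the spread. The order of the first 5 claudins by median TPM was the same at day 32, with CLDN6 at 262, CLDN1 at 184, CLDN4 at 94.5, CLDN3 at 78.4, and CLDN7 at 35.8. CLDN8, a sealing claudin of kidney and other barrier epithelia, came sixth at day 32 with a median of 30.3 TPM and a range from 0.0814 to 159 TPM. The summed claudin level ranged from 1422 to 1802 TPM at day 2, from 749 to 1244 TPM at day 22, and from 474 to 1381 TPM at day 32, so no day 22 library reached the lowest day 2 library, and the widest range was that of day 32.

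**Figure D1:**
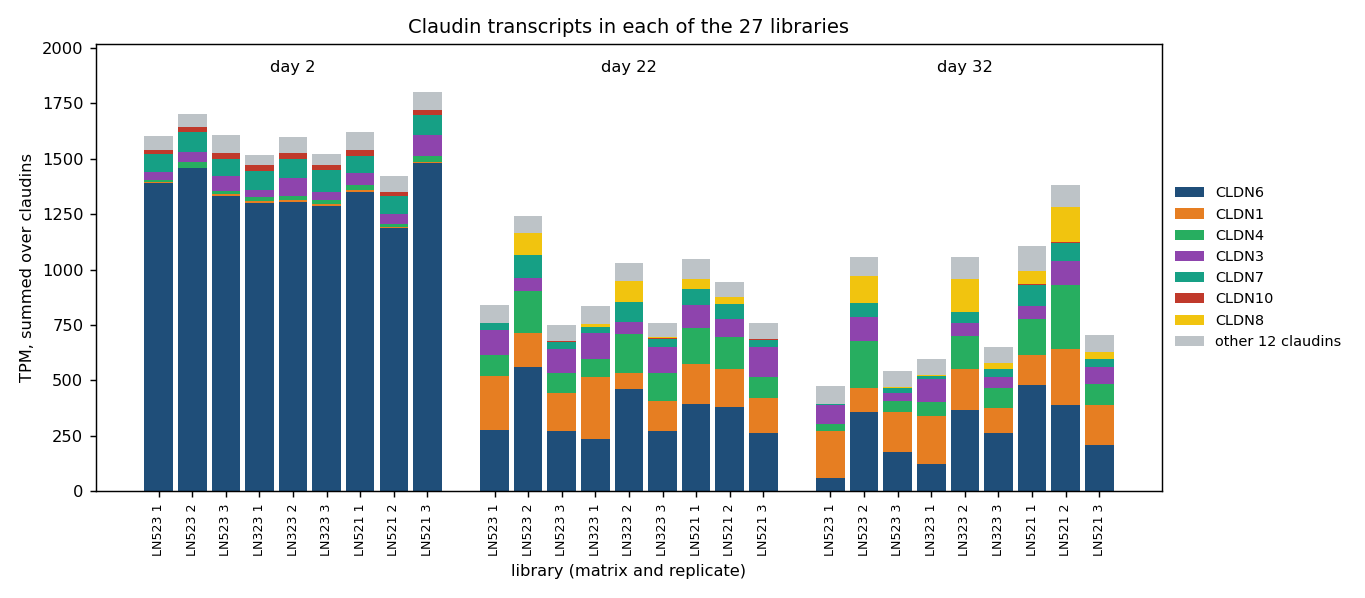
Stacked bars give the TPM of claudins in each of the 27 libraries, grouped by day, with matrix and replicate number on the x axis and colours for the 7 claudins shown singly and the 12 others summed. CLDN6 fills at least 81.7% of every day 2 bar, and CLDN1, CLDN4, and CLDN3 take visible shares at days 22 and 32.

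The first comparison asked which members changed between day 2 and day 22, averaged over the 3 matrices. The test called 22 of the 32 members (68.8%), 9 higher and 13 lower at day 22, beside 35.0% of all 44852 genes tested, of which 17.9% were higher and 17.1% lower. That share includes genes with very few counts. Of the 25682 genes kept by edgeR's expression filter filterByExpr, 63.1% were called in a fit of those genes alone. The members' share was near that of expressed genes, but it comes from the main fit and includes members with few counts. Which direction held more members depended on the settings. Of 11 other settings, 6 called more members higher than lower and 5 more lower than higher, with 12 higher and 7 lower under library size only and 12 and 9 with another reference library for TMM. By family, 7 claudins rose and 4 fell of 19, all 3 MARVEL proteins fell, JAM2 and JAM3 rose while F11R fell, all 4 scaffold proteins fell, and 1 of 3 polarity proteins fell. The median log2 fold change was -0.29 over the members and -0.03 over all genes. TMM scales every library to a reference, which edgeR took from LN323 at day 32 (replicate 1). With replicate 1 of LN521 at day 2 as the reference, which edgeR picks once any library of day 22 or 32 is left out, the median log2 fold change of all genes was 0.03 in place of -0.03, CGN, CLDN12, MARVELD2, and TJP1 lost their calls, and CLDN3 and PARD3 gained one. Fits without 1 library are therefore given below with the reference held, 26 in number, since the reference itself stays in. For 10 members, the 9 day 2 libraries did not overlap the 9 day 22 libraries, against 15.9% of all genes. This share too includes genes with very few counts, and it was not counted over expressed genes alone.

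Among the claudins that fell, CLDN6 (chr16:3014712-3020071, minus strand, GRCh38) moved the most transcripts. Its day 2 levels were 731, 783, and 669 CPM on LN523, 714, 683, and 731 CPM on LN323, and 518, 505, and 715 CPM on LN521. At day 22 they were 115, 229, and 118 CPM on LN523, 99.0, 195, and 122 CPM on LN323, and 162, 166, and 111 CPM on LN521. Every day 22 library thus lay below every day 2 library, and CLDN6 was 4.77-fold lower at day 22 (log2 fold change -2.25, SE 0.25, adjusted p = 7.6e-07). A stretch of 48.5% of its transcript matches a processed pseudogene on another chromosome at 95% identity or more, so reads could be split there. CLDN9, its immediate neighbour (chr16:3012923-3014505, plus strand), moved the other way, from a median of 1.28 CPM at day 2 to 2.82 CPM at day 22 (log2 fold change 0.88, SE 0.31, adjusted p = 0.0261), with overlapping days. The CLDN9 call was lost in 6 of the 26 fits, those without replicate 2 of LN323, replicate 2 of LN521, or replicate 1 of LN523 at day 2, or without replicate 3 of LN323, replicate 3 of LN521, or replicate 1 of LN523 at day 22. Its log2 fold change was at least 0.72 in all 26.

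CLDN10, whose splice forms make paracellular channels for cations or anions, fell furthest among the members. It went from 17.7 to 27.8 CPM at day 2 (median 24.2) to 0.660 to 3.10 CPM at day 22 (median 1.95), with no overlap. The fall was 12.8-fold (log2 fold change -3.68, SE 0.19, adjusted p = 3.62e-16). DZIP1, on the opposite strand, covers 46.0% of the exonic bases of CLDN10, and since no source says that counting used the strand, reads of the pair cannot be told apart. CLDN7, a claudin of many simple epithelia, went from 42.8 to 79.1 CPM (median 61.8) to 15.5 to 59.7 CPM (median 23.6), and the ranges overlapped. Its log2 fold change of -1.05 (SE 0.35, adjusted p = 0.0275) was no longer called without the lane as a replicate block, or in 10 of the 26 fits that left out 1 library. CLDN12, a claudin without the usual PDZ-binding tail, had a small fall (log2 fold change -0.39, SE 0.13, adjusted p = 0.0143) that was called in all 26 but not with the other TMM reference (-0.29, adjusted p = 0.0761).

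Among the claudins that rose, CLDN1 (chr3:190305707-190322446, minus strand) had the smallest SE among the 6 largest rises. Its day 2 levels were 6.77, 4.13, and 9.11 CPM on LN523, 8.66, 5.52, and 5.65 CPM on LN323, and 5.79, 6.40, and 3.95 CPM on LN521. At day 22 they were 212, 130, and 156 CPM on LN523, 246, 63.5, and 130 CPM on LN323, and 156, 157, and 143 CPM on LN521. The groups were far apart on each matrix, and the rise was 24.6-fold (log2 fold change 4.62, SE 0.25, adjusted p = 2.5e-12). CLDN16 (chr3:190322541-190412138, plus strand), a claudin of renal magnesium reabsorption that lies head to head with CLDN1, also rose (log2 fold change 4.53, SE 0.81, adjusted p = 1.74e-05), but from 14 counts over all 9 day 2 libraries to a median of only 0.521 CPM. On LN523 it had 0 counts at day 2, and with a floor of 3 counts over the group the day 22 level was at least 20.1-fold higher.

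CLDN4, a sealing claudin, rose from 13.6 to 35.2 CPM (median 25.6) to 94.99 to 208 CPM (median 150) without overlap. The rise was 5.61-fold (log2 fold change 2.49, SE 0.30, adjusted p = 1.5e-06). CLDN2, a cation and water channel of leaky epithelia, was at 0 counts in 7 of 9 day 2 libraries and at 1.14 to 3.55 CPM in the day 22 libraries (adjusted p = 1.47e-05). On LN523 all 3 day 2 libraries had 0 CLDN2 counts, and the day 22 level was at least 61.5-fold higher by the same floor. On LN521 the ratio of the CLDN2 levels was 11.6, from 14 counts at day 2, all in replicate 1. CLDN15, another cation channel, rose by 0.49 on the log2 scale (SE 0.18, adjusted p = 0.0328). Its call was lost with RLE in place of TMM, with the default glmQLFit settings, without the replicate block, and in 8 of the 26 fits. These 8 fits left out replicate 1 of any matrix or replicate 3 of LN523 at day 2, or replicate 2 or 3 of LN323, replicate 3 of LN521, or replicate 1 of LN523 at day 22.

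CLDN8 (chr21:30214006-30216097, minus strand) had the largest fitted rise and the widest spread. At day 2 it had 26 counts over 4 of 9 libraries. At day 22 its levels were 0.139, 48.7, and 0.858 CPM on LN523, 5.56, 48.8, and 2.72 CPM on LN323, and 21.1, 17.1, and 0.357 CPM on LN521. The fitted log2 fold change was 8.10 (SE 1.46, adjusted p = 0.000235) and depends on how 0 counts are treated, and the days overlapped. Without the lane 2 libraries of LN323 and LN523 at days 22 and 32 it was 6.06 (adjusted p = 0.0169).

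**Figure D2:**
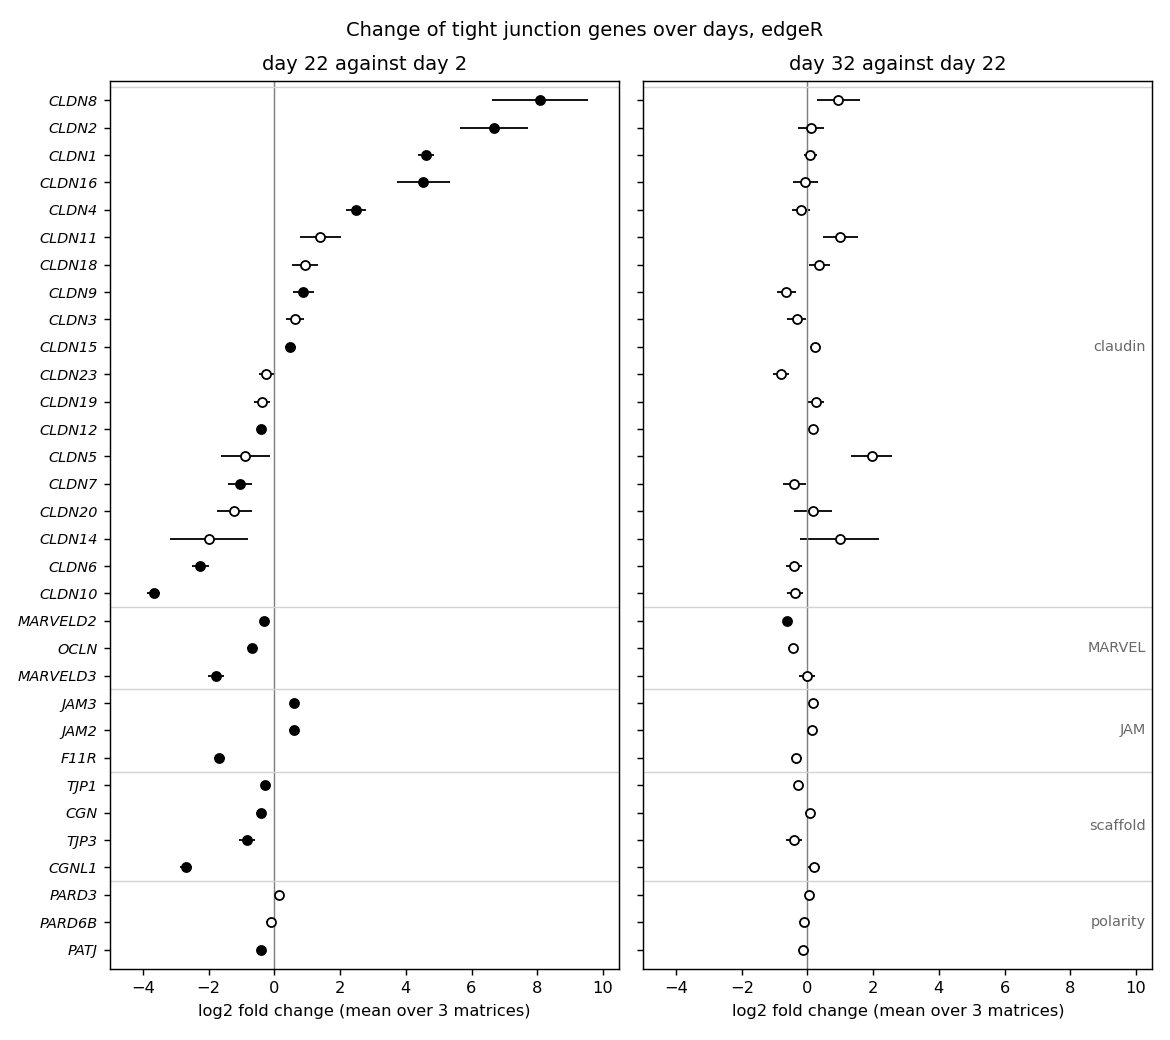
Points give the edgeR log2 fold change of each member, averaged over the matrices, with bars of 1 SE, for day 22 against day 2 (left) and day 32 against day 22 (right), ordered by family. Filled points passed an adjusted p of 0.05, 22 members on the left and MARVELD2 alone on the right.

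The strand and membrane partners of the claudins fell, apart from JAM2 and JAM3. MARVELD3 went from 23.3 to 41.1 CPM (median 27.0) to 4.44 to 19.4 CPM (median 7.24), a log2 fold change of -1.77 (SE 0.25, adjusted p = 2.85e-06), with no overlap. OCLN, occludin, went from a median of 51.0 to 31.3 CPM (log2 fold change -0.70, SE 0.13, adjusted p = 3.54e-05), and 11.0% of its transcript matches the OCLNP1 pseudogene. MARVELD2, tricellulin of 3-cell contacts, had a log2 fold change of -0.31 (SE 0.12, adjusted p = 0.0481). Its call was lost without the replicate block, with the other TMM reference, with the default glmQLFit settings, and in 16 of the 26 fits without 1 library. F11R, also called JAM-A, fell from 125 to 203 CPM (median 160) to 42.3 to 69.0 CPM (median 48.8), with a log2 fold change of -1.68 (SE 0.17, adjusted p = 5.35e-09). A read-through gene on the same strand shares 36.6% of the exonic bases of F11R. JAM3, an adhesion molecule also present in endothelium and neural progenitors, rose from a median of 81.4 to 119 CPM without overlap (log2 fold change 0.60, SE 0.11, adjusted p = 2.35e-05), and JAM2 rose by a log2 fold change of 0.59 (SE 0.16, adjusted p = 0.00388). NCAPD3, on the opposite strand, covers 35.6% of the exonic bases of JAM3.

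On the cytoplasmic side, CGNL1, or paracingulin, a junctional plaque protein related to cingulin, fell the furthest. Its levels went from 190 to 265 CPM (median 227) to 21.0 to 51.8 CPM (median 34.6), a 6.45-fold fall without overlap (log2 fold change -2.69, SE 0.19, adjusted p = 5.68e-11). The other scaffold proteins fell by less. TJP3, or ZO-3, had a log2 fold change of -0.85 (SE 0.25, adjusted p = 0.00973) and CGN, cingulin, of -0.40 (SE 0.15, adjusted p = 0.0449). TJP1, or ZO-1, which also serves adherens junctions, had -0.28 (SE 0.10, adjusted p = 0.0255). The calls of CGN and TJP1 were lost with the other TMM reference and in 12 and 7 of the 26 fits without 1 library, and that of CGN also without the replicate block. Of the polarity proteins, PATJ of the Crumbs complex fell (log2 fold change -0.42, SE 0.12, adjusted p = 0.00394), and was called in all 26 fits but not under library size only. PARD3 and PARD6B of the PAR complex were not called, with log2 fold changes of 0.15 and -0.11. With the other TMM reference PARD3 was called (0.26, adjusted p = 0.0132), and under library size only the PARD6B value was 0.02.

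The 10 members that were not called at day 22 were PARD3, PARD6B, and 8 claudins, CLDN3, CLDN5, CLDN11, CLDN14, CLDN18, CLDN19, CLDN20, and CLDN23. CLDN3, a sealing claudin next to CLDN4 on chromosome 7, had a log2 fold change of 0.63 (SE 0.28, adjusted p = 0.102), and CLDN11, known from myelin and the testis, of 1.40 (SE 0.63, adjusted p = 0.102). DESeq2 and limma called CLDN3 higher. CLDN14 reached at most 0.260 CPM in any library. CLDN18 and CLDN20 had medians under 1 CPM on every day. Of the called members, limma on TPM did not call CGN, CLDN7, CLDN12, MARVELD2, PATJ, TJP1, and TJP3 with either pseudocount. Library size only did not call CGN, CLDN7, CLDN12, MARVELD2, PATJ, and TJP1. CGN, CLDN12, and TJP3 lost their calls without the lane 2 libraries of LN323 and LN523 at days 22 and 32. With only the libraries of the days compared, CGN, MARVELD2, TJP1, and TJP3 lost theirs.

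**Figure D3:**
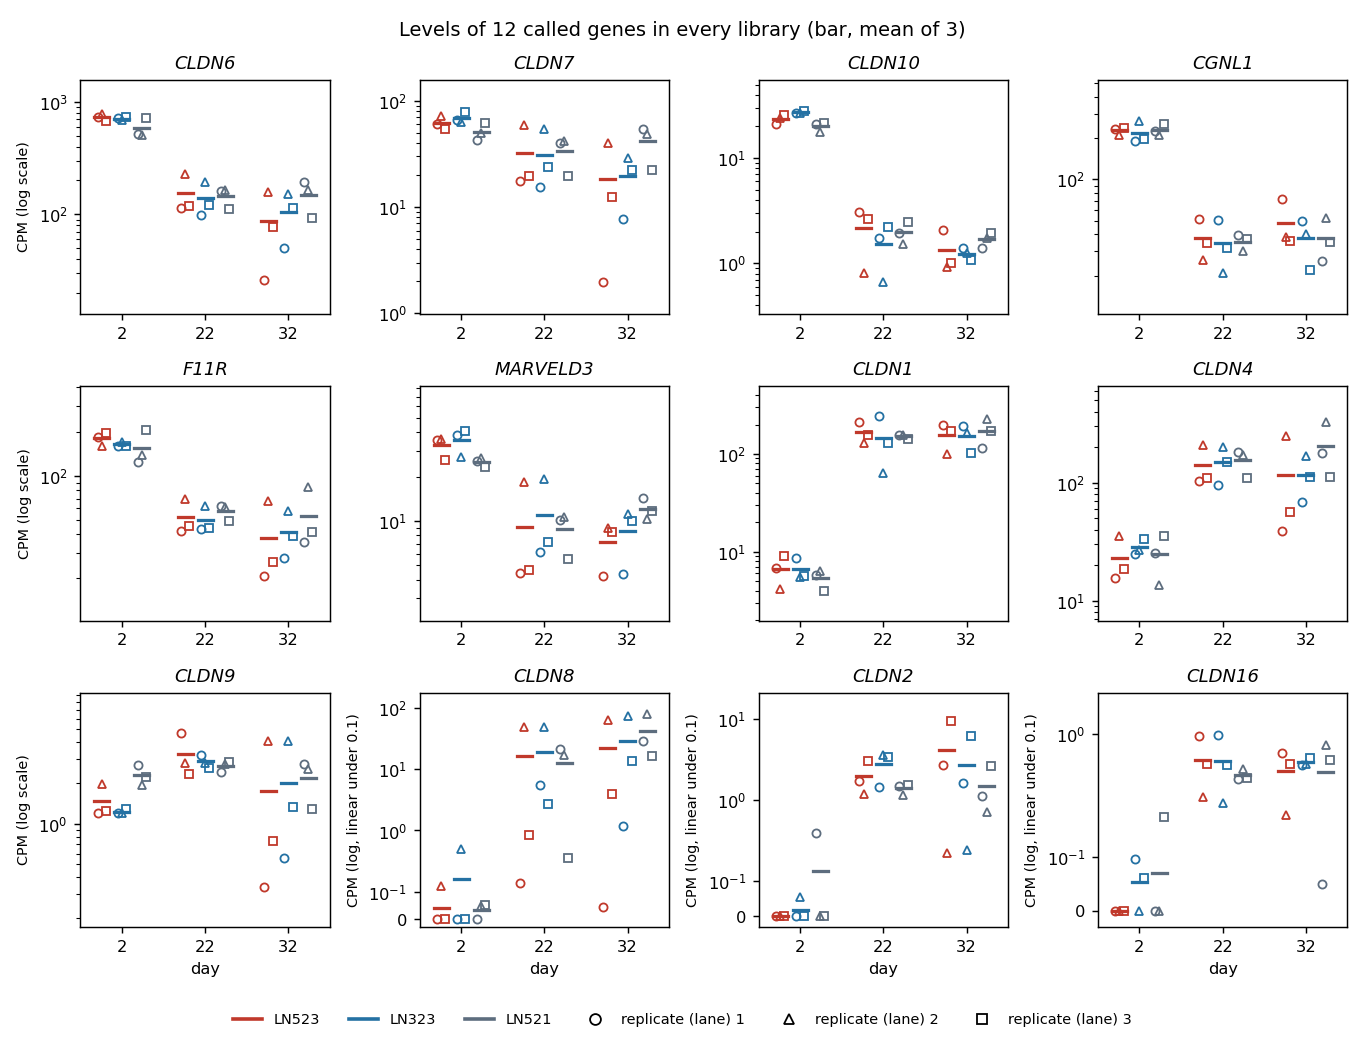
Points give the CPM of 12 called members in every library by day (x axis), with colours for the matrices, symbols for the replicates, and bars for the mean of 3, on log axes that turn linear under 0.1 CPM for CLDN8, CLDN2, and CLDN16. The 6 largest falls come first, then the 6 largest rises, and CLDN8 at day 22 runs from 0.139 to 48.8 CPM.

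Genes around the junction changed in both directions. Among 20 other junction and polarity genes, 8 rose and 10 fell from day 2 to day 22. The scaffold genes MAGI3 (log2 fold change 2.31, SE 0.14) and PARD3B (2.08, SE 0.15) rose, as did PALS1 of the Crumbs complex (1.41, SE 0.12), whereas MAGI1 fell (-0.97, SE 0.09). Of 19 epithelial identity genes, 8 rose and 6 fell, with KLF5 (3.53, SE 0.29) and KRT8 (0.85, SE 0.12) higher and ESRP1, a regulator of epithelial splicing (-3.06, SE 0.41), and OVOL2 (-2.46, SE 0.35) lower. The median log2 fold change was -0.26 over the junction list and 0.07 over the epithelial list. Of 6 repressors of the SNAI, ZEB, and TWIST families, which are known to bind promoters of junction genes, 4 rose and none fell. ZEB2 went from a median of 0.232 to 64.4 CPM (log2 fold change 7.61, SE 0.21) and ZEB1 from 0.316 to 69.3 CPM (7.59, SE 0.27). SNAI2 (5.15, SE 0.42) and TWIST1 (6.56, SE 0.95) also rose, and SNAI1 and TWIST2 were not called. The mesenchymal list, which holds TWIST1 too, rose over the same days, from 287 to 616 CPM in sum at day 2 to 1838 to 5620 CPM at day 22, and its part in these results was not tested.

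SNAI and ZEB proteins bind the E-box CAGGTG, which was therefore searched on both strands of the 300-base promoter windows given by RefSeq (GRCh38.p14), from 250 bases before to 50 after each start. Entries existed for 21 members and 34 starts. CAGGTG was present at 12 of the 34 windows (35.3%), of 10 genes, beside 20.6% of all 35116 windows. These 10 genes were CLDN3, CLDN6, CLDN7, CLDN14, CLDN16, CLDN18, OCLN, PATJ, TJP1, and TJP3, of which CLDN6, CLDN7, OCLN, PATJ, TJP1, and TJP3 fell by day 22, CLDN16 rose, and CLDN3, CLDN14, and CLDN18 were not called. Of the 11 members with an entry but no CAGGTG, 5 fell (CLDN10, CLDN12, MARVELD2, CGN, and CGNL1), 4 rose (CLDN1, CLDN2, CLDN4, and CLDN15), and 2 were not called. Same-strand copies upstream of a start are shown for OCLN, CLDN7, and TJP1, which fell and come from the MARVEL, claudin, and scaffold families in turn. They are printed 5′ to 3′ on the strand of the gene with the motif in capitals.
OCLN, chr5:69492504-69492529, plus strand: atccgagtttCAGGTGaattggtcac
OCLN, chr5:69492647-69492672, plus strand: taggacgcagCAGGTGggactcgcgg
CLDN7, chr17:7262598-7262623, minus strand: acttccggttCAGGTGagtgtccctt
CLDN7, chr17:7262483-7262508, minus strand: tacatatactCAGGTGcgccccacct
TJP1, chr15:29969122-29969147, minus strand: ggccggcgcgCAGGTGgcccggcctc
The copies begin 33 and 133 bases upstream of separate starts of OCLN, 135 and 20 bases upstream of a start of CLDN7, and 88 bases upstream of a start of TJP1. Copies on the opposite strand, of which CLDN7 has several near the same start, and copies downstream of a start are not shown. Same-strand upstream copies of PATJ and TJP3, which fell, and of CLDN14 and CLDN18, which were not called, are not shown either. The only copies of CLDN3, CLDN6, and CLDN16 lie downstream of a start. The calls of CLDN7, PATJ, TJP1, and TJP3 depended on the settings, as given above. So did those of CLDN12, CLDN15, MARVELD2, and CGN among the members without CAGGTG. A match is a description of the sequence, and binding was not measured. The grainyhead-type motif AACNGGTT was present at 1 member window, of CGN, beside 1.73% of all windows.

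Between day 22 and day 32, averaged over the matrices, 1 of 32 members was called, beside 0.899% of all genes, 0.729% higher and 0.169% lower. MARVELD2 was lower at day 32. Its day 22 levels were 19.1, 38.3, and 21.3 CPM on LN523, 26.3, 37.2, and 25.0 CPM on LN323, and 24.3, 34.0, and 29.98 CPM on LN521. At day 32 they were 9.17, 19.8, and 14.0 CPM on LN523, 13.9, 19.6, and 19.2 CPM on LN323, and 21.0, 31.6, and 23.4 CPM on LN521. Each replicate was lower at day 32 than the same-numbered replicate at day 22, although the 2 days overlapped, and MARVELD2 was 1.53-fold lower (log2 fold change -0.61, SE 0.12, adjusted p = 0.00603). The call held in each of the 27 fits without 1 library. OCLN (log2 fold change -0.45, SE 0.13, adjusted p = 0.106), CLDN23 (-0.81, SE 0.24, adjusted p = 0.122), and CLDN5 (1.95, SE 0.64, adjusted p = 0.259) were not called by edgeR, and DESeq2 called all 3, beside 1.49% of all genes. For no member were the day 22 and day 32 libraries apart, against 0.0624% of all genes. None of the 20 other junction genes, the 19 epithelial genes, or the 6 repressors was called, while 3 of 7 surface ectoderm markers rose, among them KRT17 from a median of 13.6 to 185 CPM.

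The spread within groups at days 22 and 32 followed the lane on LN323 and LN523. In all 4 of these groups, 11 members were highest in lane 2, against 3.92% of all genes. They were CLDN4, CLDN6, CLDN7, CLDN8, CLDN11, OCLN, MARVELD2, MARVELD3, TJP3, F11R, and PATJ. CLDN1, CLDN15, CGNL1, and PARD6B were highest in lane 1 in all 4 groups (2.3% of all genes), and 0 members were highest in lane 3 in all 4 (1.11% of all genes). The pattern was noticed in the data, and the LN521 groups did not share it throughout. CLDN8 showed it most at day 32, with 0.0427, 63.1, and 3.96 CPM in lanes 1, 2, and 3 on LN523, 1.17, 73.3, and 13.5 CPM on LN323, and 29.1, 80.0, and 16.2 CPM on LN521. CLDN11 at day 32 had 10.1, 30.4, and 6.91 CPM on LN523, 8.00, 36.2, and 16.8 CPM on LN323, and 34.0, 13.1, and 4.75 CPM on LN521. Its lane 2 levels were thus the highest on LN523 and LN323 but not on LN521.

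Marker lists moved with the same libraries. At day 32, the 7 surface ectoderm and keratinocyte markers summed to 70.7, 544, and 143 CPM in lanes 1, 2, and 3 on LN523 and to 132, 641, and 181 CPM on LN323. On LN521 they summed to 474, 552, and 245 CPM. The 7 mesenchymal markers summed to 2892, 10926, and 2701 CPM on LN523 and to 3975, 16847, and 6356 CPM on LN323. Lane 2 was thus the highest for both lists on these 2 matrices. The 19 epithelial identity genes summed to 984, 3160, and 1483 CPM on LN523 at day 32, whereas the 6 neural retina progenitor markers were lowest in lane 2, at 2191, 1082, and 2204 CPM. The part of these cell types in the member levels was not tested. The defining oligodendrocyte marker MOG had a median of 0 CPM at both later days, and 1 of 5 oligodendrocyte markers rose and 2 fell by day 22, beside the CLDN11 levels.

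**Figure D4:**
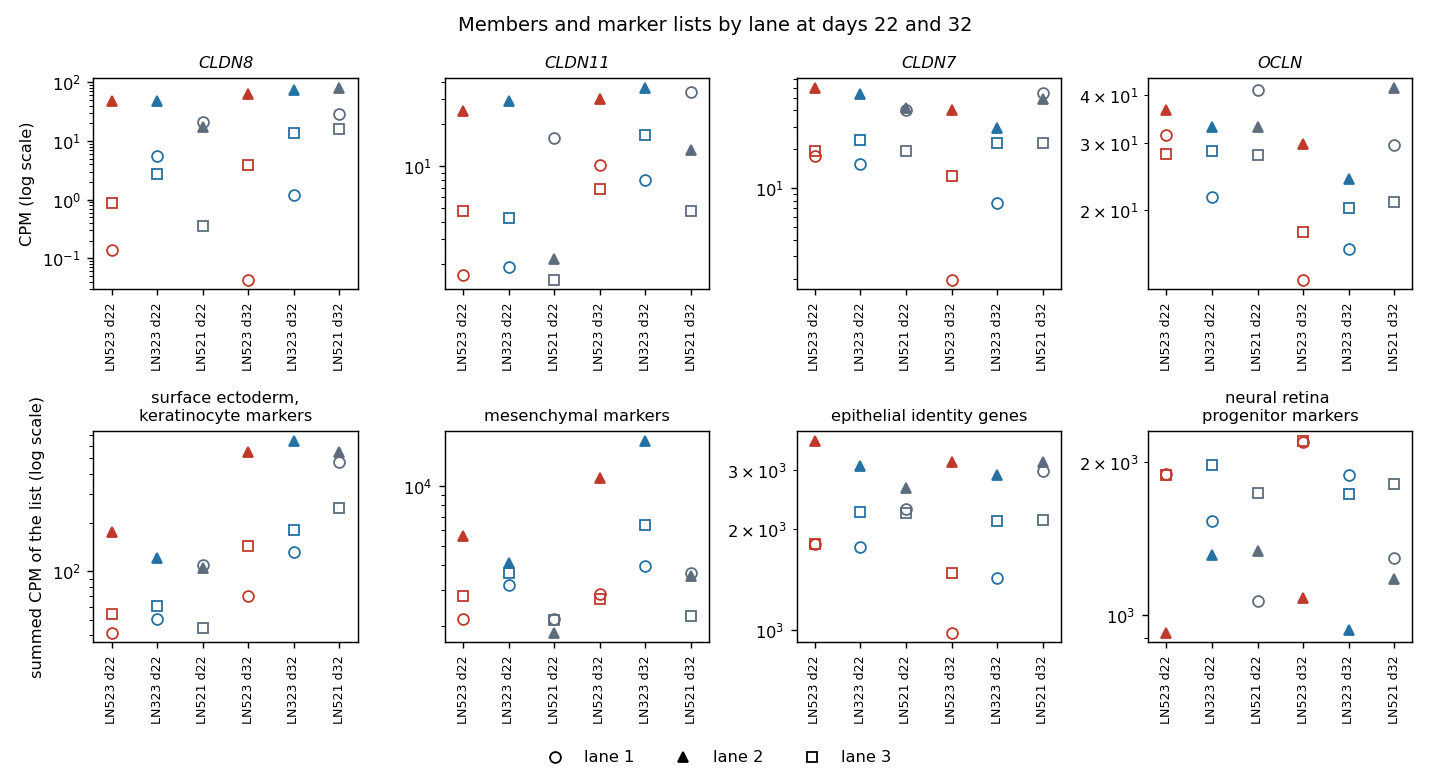
Points give, for each group at days 22 and 32 (d22, d32), the CPM of 4 members (top) and the summed CPM of 4 marker lists (bottom) on log axes, with a filled triangle for lane 2. On LN523 and LN323 lane 2 is the highest for CLDN8, CLDN11, CLDN7, and OCLN and for the first 3 lists, and the lowest for the neural retina list.

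The matrix comparisons asked whether the laminin changed the members at each day. In all 9 comparisons, edgeR called 0 of 32 members. Over all genes, 0.0% were called in 8 of them and 0.228% in LN323 against LN521 at day 2 (0.0828% higher and 0.145% lower). At an unadjusted p under 0.05 there were, for LN523 against LN323, LN523 against LN521, and LN323 against LN521 in turn, 0, 1, and 3 members at day 2, 0, 2, and 3 at day 22, and 0, 7, and 4 at day 32. The shares of all genes were, in the same order, 1.46%, 8.98%, and 12.5% at day 2, 1.31%, 4.15%, and 4.04% at day 22, and 1.94%, 5.19%, and 4.71% at day 32. DESeq2 called 486 to 897 genes in these comparisons, in the same order 1.83%, 1.65%, and 2.32% of all genes at day 2, 1.42%, 1.26%, and 1.62% at day 22, and 2.09%, 2.09%, and 2.03% at day 32. Among the members DESeq2 called CLDN2 in both comparisons of LN523 at day 2, where LN523 had 0 CLDN2 counts, and MARVELD2 in LN523 against LN521 at day 32. It called no member in the other 6, and limma on TPM called none in any. The tests of whether the matrices differed in the change from day 2 to day 22, or from day 22 to day 32, also called 0 members by edgeR, DESeq2, and limma (edgeR gave 0 and 1 at an unadjusted p under 0.05, beside 3.53% and 3.17% of all genes). DESeq2 called 0.0312% and 0.0156% of all genes there. The smallest unadjusted edgeR p-values were those of CLDN5 (0.0568) and CLDN20 (0.0694) for the first interval and of CLDN5 (0.0323) and MARVELD2 (0.0828) for the second, each with an adjusted p of 1. In simulated counts the LN523 against LN521 test at day 32 recovered 4% of 2-fold and 55% of 4-fold changes, so changes of 2-fold would mostly have gone uncalled.

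At day 2, CLDN20 had the smallest p against LN521. It had 3.03, 0.975, and 0.0526 CPM on LN521, 0.469, 0.123, and 0.232 CPM on LN523, and 0.241, 0.301, and 0.122 CPM on LN323, so replicate 1 of LN521 stood highest and replicate 3 lowest of all. The log2 fold change was -2.44 on LN523 (SE 0.68, adjusted p = 0.228) and -2.72 on LN323 (SE 0.69, adjusted p = 0.109). CLDN9 came second in both (-0.73, SE 0.38 and -0.997, SE 0.38). Without replicate 2 of LN323 at day 2, the LN323 against LN521 comparison called 3 members, CLDN19, CLDN20, and TJP3. The full fit called 0.228% of all genes in this comparison, and the share without that library is not given here. For LN523 against LN323, CLDN15 and JAM2 had the smallest p, with log2 fold changes of 0.53 (SE 0.29) and 0.43 (SE 0.29), and PARD6B (0.25, SE 0.17) had the same p as JAM2 to 3 digits. The median of all genes was -0.21 in LN523 against LN521 and -0.22 in LN323 against LN521 at day 2, and -0.33 and -0.37 when scaled by library size only, beside 0.09 and 0.04 for the members under TMM and -0.04 and -0.12 under library size only, so the sign of the members' median depended on the scaling at day 2.

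At day 22, CLDN5, the claudin of the blood-brain barrier, had the smallest p against LN521. Its levels were 9.39, 1.8, and 0.0549 CPM on LN521, 0.278, 0.714, and 0.0572 CPM on LN523, and 0, 0.228, and 0.234 CPM on LN323. Replicates 1 and 2 of LN521 were above all 6 libraries of the other matrices, and replicate 3 was below 5 of them. The log2 fold change was -3.21 on LN523 (SE 0.90, adjusted p = 0.941) and -3.93 on LN323 (SE 1.06, adjusted p = 0.834), and without replicate 1 of LN521 it was -1.12 and -2.19. The 6 endothelial markers summed to 36.9, 7.86, and 10.2 CPM in the 3 LN521 libraries, so replicate 1 was high here too. Replicate 2, second for CLDN5, had the lowest endothelial sum of any day 22 library. The median of this sum fell from 270 CPM at day 2 to 13.5 CPM at day 22. The 8 pluripotent cell markers summed to 644, 251, and 169 CPM in the 3 LN521 libraries at day 22, again highest in replicate 1. The part of either list in the CLDN5 level was not tested. CDH5, a defining endothelial gene, had a median of 0.515 CPM at day 22. CLDN19 was second in both comparisons (-0.60, SE 0.28 and -0.73, SE 0.28), and CLDN20 (1.44, SE 0.89) and CLDN2 (-0.58, SE 0.39) had the smallest p in LN523 against LN323. When replicate 1 of LN521 at day 22 was left out, CLDN11 alone was called in both comparisons with LN521. Its levels were 15.8, 2.18, and 1.54 CPM on LN521. They were 1.67, 25.0, and 4.80 CPM on LN523 and 1.90, 29.3, and 4.24 CPM on LN323. The full fits called 0.0% of all genes there, and the share without that library is not given here.

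At day 32, 26 of 32 members had a lower fitted level on LN523 than on LN521 and 25 of 32 a lower one on LN323 than on LN521, with median log2 fold changes of -0.37 and -0.41 beside -0.05 over all genes in both. The all-gene medians were below 0 too, so more genes were lower than higher over all genes, and their share was not counted. These comparisons share the LN521 libraries. Without the lane 2 libraries of LN523 and LN323, 22 and 21 members were lower. MARVELD2 had the smallest p in LN523 against LN521, with a log2 fold change of -0.89 (SE 0.22, adjusted p = 0.768), and its highest LN523 library (19.8 CPM) was below its lowest LN521 library (21.0 CPM). F11R was next (-0.61, SE 0.20, adjusted p = 0.816). In LN323 against LN521, OCLN (-0.61, SE 0.24, adjusted p = 0.947) and MARVELD2 (-0.53, SE 0.21, adjusted p = 0.947) came first, and MARVELD2 and F11R did so in LN523 against LN323 (-0.35, SE 0.22 and -0.28, SE 0.20). The epithelial identity list had a median log2 fold change of -1.32 in LN523 against LN521 and -0.68 in LN323 against LN521, with none of its 19 genes called, and its part in the members' differences was not tested.

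**Figure D5:**
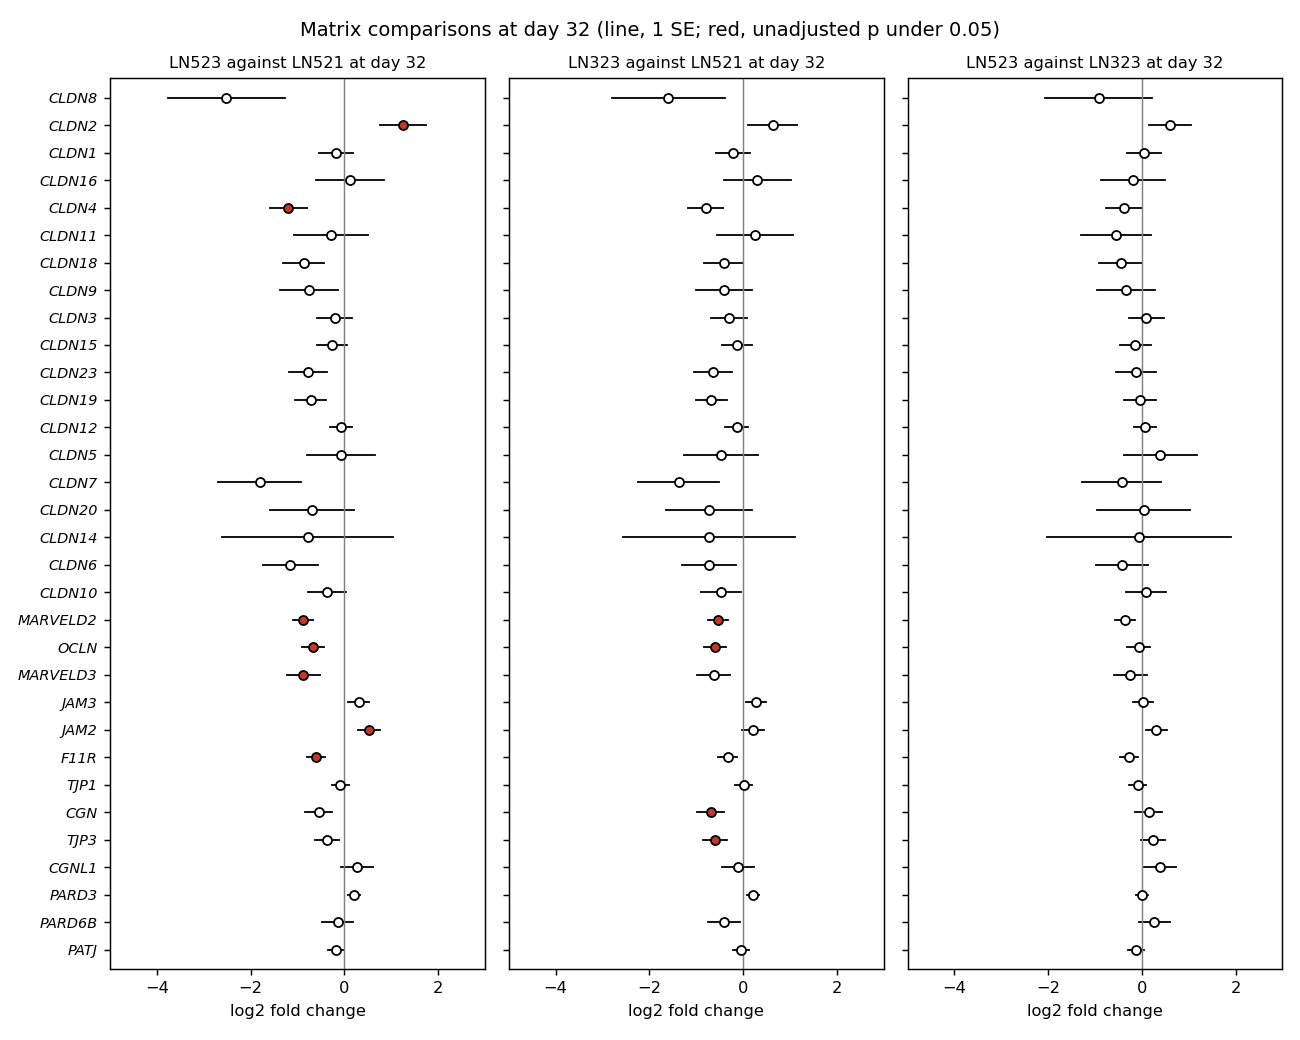
Points give the log2 fold change of each member at day 32 for the 3 pairs of matrices, with lines of 1 SE and red points at an unadjusted p under 0.05. No point passed the adjusted threshold, and 26, 25, and 18 of 32 points lie below 0 from left to right.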

How the data were processed

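The authors sequenced stranded total RNA after removal of ribosomal RNA in paired 150 bp reads, used STAR 2.5.2b for alignment to GRCh38 (Ensembl 79), counted genes with featureCounts 1.5.1, removed rRNA and mitochondrial genes, and deposited rounded counts without normalization and TPM values per gene. Whether counting used the strand is not given in the sources used here. Of the non-zero counts 68.8% were even, as when both mates are counted, so counting error is larger than a count implies. The members and gene lists were chosen with earlier results of these data known.

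GENCODE 44 or a table of names gave a symbol to 43052 of the 44852 genes. Counts were tested with edgeR 4.0.16 in R 4.3.3 (TMM, genes with more than 1 count in sum, glmQLFit with a robust prior and the newer moderation). Day contrasts and tests of their difference between matrices used all 27 libraries, and matrix comparisons the 9 libraries of a day. Lane, which the labels give and the study's model includes, was the replicate block. Deviations from group means correlated between same-lane libraries of different matrices at -0.314 to 0.628, above 0.1 in 14 of 27 pairs. Replicates differed by more than sampling noise (mean chi-square per gene 14.7 to 236 over 27 pairs). The coefficient of variation between replicates was 45.1% over all libraries. On simulated data with 200 changed genes, the day contrast recovered 64% of 2-fold and 92% of 4-fold changes among 44852 genes, with 17 unchanged genes among 173 calls. The default glmQLFit settings called 145 unchanged genes among 314 and were therefore kept as an alternative.

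All members were described, with values by library for the 6 largest rises and falls, members called elsewhere, or otherwise the 2 of smallest p per comparison. CLDN8, CLDN11, and the lane order were singled out after their values were seen. Alternatives were DESeq2 1.42.0, RLE, library size only, filterByExpr, no block, limma 3.58.1 on log2(TPM + 1) or log2(TPM + 0.1), another reference library for TMM, other sets of libraries, and leaving out each library. Similar transcripts were found with BLAST at 95% identity over 150 bases. Missing from the promoter table were CLDN5, CLDN8, CLDN9, CLDN19, CLDN23, MARVELD3, F11R, JAM2, JAM3, PARD3, and PARD6B.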

Additional observations from a re-analysis of the deposited data

How the results depend on the processing

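No called member changed direction in the day comparisons. PARD6B, not called at -0.11 from day 2 to day 22, was 0.0151 under library size only, 0.101 and 0.103 in limma on log2(TPM + 1) and log2(TPM + 0.1), 0.12 without the 4 lane 2 libraries, and -0.17 to 0.0411 without 1 library, where 19 of the 27 fits also took another TMM reference. With the reference held it was below 0 throughout. In the matrix comparisons, where no member was called, 6 to 13 members took another sign in the setting that moved most. From day 2 to day 22, 17 to 26 members were called over 11 settings, 18 to 22 over the 27 fits without 1 library, and 16 to 22 over 26 such fits with one TMM reference, against 22. The split was 8 to 12 higher and 6 to 14 lower over the 11, and 14 members kept their call under all 11. The share of all genes called ran from 33.8% without the 4 lane 2 libraries to 63.1% under filterByExpr, against 35.0%. Without the replicate block 18 members were called, beside 35.0% of all genes, and the block changed no member call of the other 12 tests. From day 22 to day 32, against 1 member, 4 were called by DESeq2, 2 with the default glmQLFit settings, 3 without the 4 lane 2 libraries of LN323 and LN523, and 1 to 3 without 1 library, the highest without replicate 2 of LN523 at day 32 and 2 without replicate 1 of LN521 at day 22. Of all genes, DESeq2 called 1.49%, the default settings 1.33%, and the fit without the 4 lane 2 libraries 0.934%, against 0.899%. Against 0 members, DESeq2 called 1 in LN523 against LN323 and in LN523 against LN521 at day 2 and 1 in LN523 against LN521 at day 32, beside 1.83%, 1.65%, and 2.09% of all genes. The default settings called 1 member, CLDN5, in LN523 against LN521 at day 22, beside 0.572% of all genes. Leaving out 1 library gave 0 to 3 members in LN323 against LN521 at day 2, 0 to 1 in both comparisons with LN521 at day 22, and 0 in the rest. The shares of all genes called in the fits without 1 library are not given here. Fits without the 4 lane 2 libraries, with only the 2 groups compared, with the default settings, or with another or a held TMM reference were chosen after seeing the data. The causes were not tested. In LN323 against LN521 at day 2, 36.4% of the 88 genes called were higher under TMM and 2.8% of 36 under library size only. Low counts limit CLDN2, CLDN14, CLDN16, CLDN18, and CLDN20.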
